A study of Gallus gallus with 15 samples.

Results

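Interferon response genes were measured by RNA sequencing in broiler breeder hen liver. Such hens lay the eggs from which meat chickens hatch. The set was a list of 39 chicken interferon-stimulated and interferon signalling genes, and 37 of them were found by symbol among the 24154 gene rows of the read-count table. ISG12-2 and USP41 had no row of that name. The RefSeq gene table of assembly GRCg7b gives ISG12-2 as a synonym of IFI6, which is in the count table, and it holds USP41 but no USP18, whereas the count table holds USP18. Of the 37 genes, 35 passed the filter on low counts and were tested, and RSAD2 and XAF1 did not pass it. The 5 control libraries came from hens whose feed held 0 mg/kg body weight of metformin, a biguanide used against diabetes in people. The 10 metformin libraries came from hens fed 75 mg per kg of body weight. In both groups the feeding ran for 40 weeks, from 25 to 65 weeks of age, and the liver was taken at 65 weeks. The labels give 45 hens per treatment and name neither a strain nor an infection. Whether each library is 1 hen is not stated in them, so the tests weigh differences against the spread between these libraries, which may be technical.

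Interferons are secreted proteins that cells release on sensing viral nucleic acid. They bind paired receptor chains, whose kinases phosphorylate STAT factors, and STAT and IRF factors then switch on a large set of antiviral genes, including sensors, effectors and their own regulators. Birds have type I, type II and type III interferons. Chickens are known to lack RIG-I and to rely on MDA5, the product of IFIH1, to sense viral RNA in the cytosol. In liver the response is carried by hepatocytes as well as by Kupffer cells and other leukocytes.

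The libraries held 8023809 to 41041301 reads in genes. The share of reads assigned to no gene gave 3 sets of libraries. It was 27.8% to 43.5% in the controls and metformin 1, 3 and 4, called the middle set here. It was 14.6% to 17.5% in metformin 2 and 5, the low set, and 51.5% to 55.1% in metformin 6 to 10, the high set. The low and high sets hold no control, so there metformin and set cannot be told apart. A second fit, called set-adjusted, therefore carried the set as a covariate. Its fold changes come from metformin 1, 3 and 4 and the 5 controls. The low and high sets add to its dispersion only, and so to its SE and p. Hepatocyte markers, of which 20 of 21 were in the table, summed to 65289 to 171977 CPM (read counts scaled to a common library size, with TMM factors), as the tissue label says. In whole tissue, fewer cells of a type and less RNA per cell cannot be told apart.

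Over all 15 libraries 4 of the 35 tested interferon genes rose with metformin and 2 fell. IFNAR2, a chain of the type I interferon receptor, the RNA sensor IFIH1, the helicase HELZ2 and the ubiquitin ligase TRIM25 rose. OASL, an antiviral synthetase, and IFI6, a small mitochondrial protein, fell. Among all 14432 genes tested, 12.5% were called higher and 5.73% lower, so the 4 and 2 of 35 are shares near the background. In no interferon gene did all 10 metformin libraries lie above all 5 controls, or all below them, against 0.651% and 1.05% of all genes. The 4 genes that rose were high in the low and high sets, and their values in metformin 1, 3 and 4 overlapped the controls. IFI6 and OASL had their highest value in control 4.

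Set-adjusted, 0 of the 35 genes were called by edgeR in either direction, where the background was 0.0277% higher and 0.00693% lower. An unadjusted p under 0.05 was found in 7 of 35, against 11.6% of all genes: HELZ2 was higher, and ZNFX1, IFIT5, IFI6, USP18, DTX3L and B2M were lower. By direction these were 1 of 35 higher, against 5.74% of all genes, and 6 of 35 lower, against 5.89%. Within the middle set alone edgeR called 0 of 35 higher and 0 lower, against 0.0% and 0.00734% of all genes. There 1 of 35 was higher at an unadjusted p under 0.05, against 5.3%, and 5 were lower, against 4.91%. With the set as a covariate DESeq2 gave 0 calls too among these genes, with 11 at an unadjusted p under 0.05, while over all 14432 genes it gave 172 higher and 89 lower calls and 1866 at an unadjusted p under 0.05. Set-adjusted log2 fold changes were below 0 in 28 of 35 interferon genes and in 53.8% of all genes, with medians of -0.25 and -0.03. Markers of some cell types leaned the same way in this fit. Below 0 were 17 of 20 hepatocyte markers (median -0.47), 9 of 11 endothelial markers (median -0.50) and 18 of 27 leukocyte markers (median -0.37). Of 5 erythrocyte and thrombocyte markers 4 were below 0, but with a median of -0.06. The part of these cells in the values was not tested. Without control 4 the interferon genes were below 0 in 28 of 35 again, with a median of -0.19, against 52.4% and -0.03 for all genes. But 1 of the 35 then had an unadjusted p under 0.05, as had 1508 of all 14632 genes tested. Control 4 was not alone in this. Without metformin 1 it was 1 of 35, and without metformin 3 it was 2, against 1227 and 1429 of all 14405 genes. With any other library left out, 5 to 9 of the 35 had one.

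**Figure D1:**
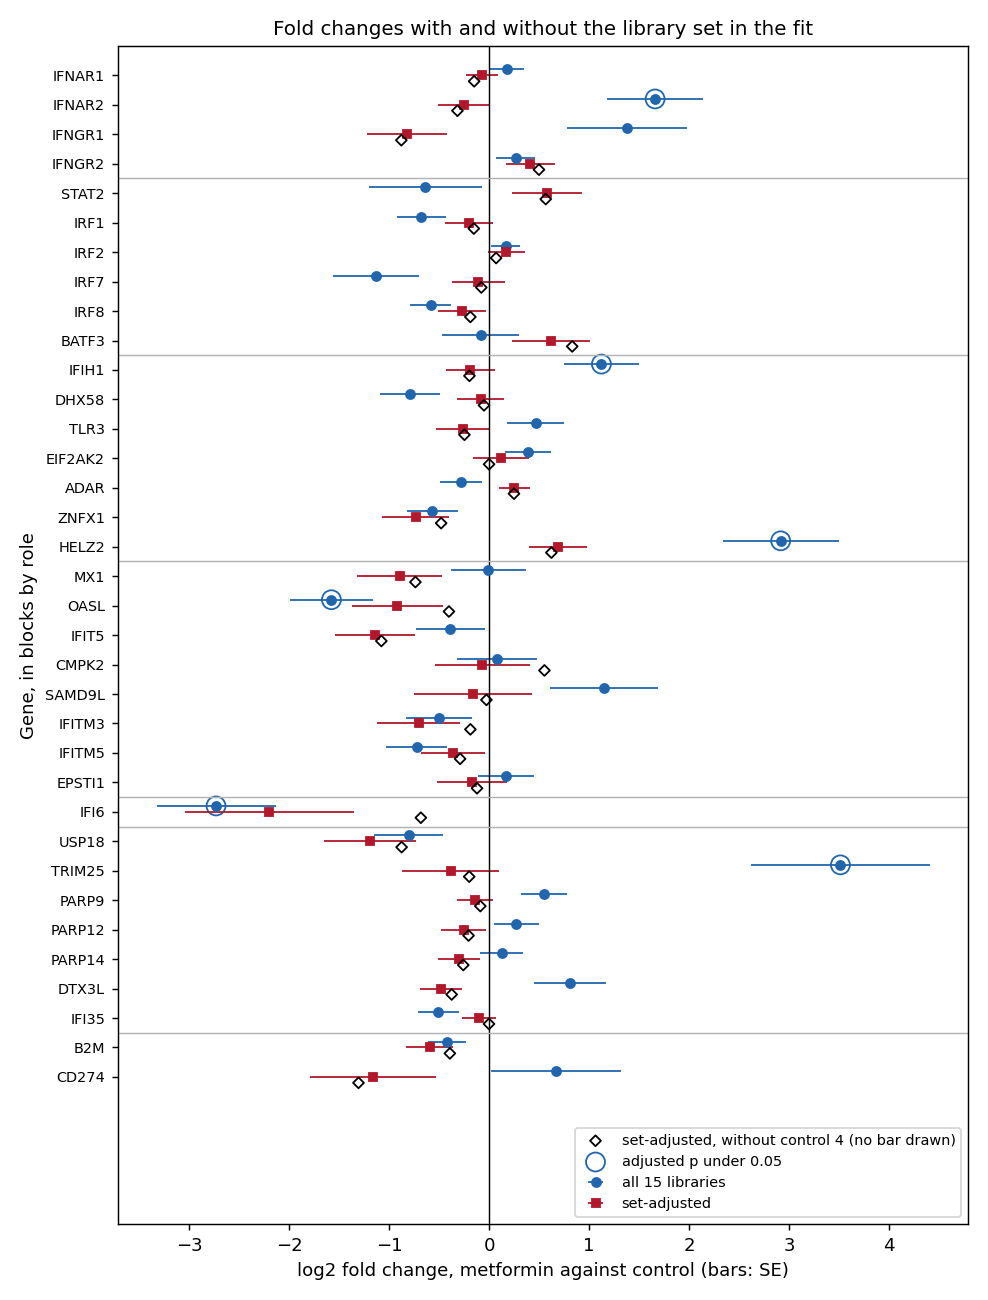
Log2 fold change (metformin against control) of the 35 tested interferon genes in blocks by role, over all 15 libraries (circles, bars are SE), set-adjusted (squares, bars are SE) and set-adjusted without control 4 (diamonds). Ringed circles passed at an adjusted p under 0.05: IFNAR2, IFIH1, HELZ2 and TRIM25 lie to the right at 1.12 to 3.51 but at -0.39 to 0.69 set-adjusted, and IFI6 moves from -2.20 to -0.68 set-adjusted when control 4 is left out.

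Few interferon ligands could be read by symbol, and those that could had few reads. Of 11 ligand symbols looked for, 4 were in the table and 0 passed the filter. The others had no row, so nothing can be said of their levels. IFNA3 and IFNL3A had 0 reads among 305149367 reads in genes, which allows a level of up to 0.00983 CPM over the libraries pooled, counting error only. Reads placed in several positions were not assigned to genes, so this level holds for uniquely placed reads only. IFNW1 had 2 reads in all. IFNG, the type II interferon made by lymphocytes, had 78 reads in 11 of 15 libraries, and its highest count was the 15 reads of control 4.

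Of the 4 receptor genes 1 rose and 0 fell over all libraries in edgeR, against 12.5% and 5.73% of all genes. IFNAR2 stood at 5.17, 4.45, 7.08, 4.42 and 5.69 CPM in controls 1 to 5 and at 3.13, 5.33 and 4.99 CPM in metformin 1, 3 and 4. It stood at 26.2 and 20.3 CPM in metformin 2 and 5, and at 13.8, 19.4, 23.3, 26.9 and 26.2 CPM in metformin 6 to 10. All 7 libraries of the low and high sets lay above all 8 of the middle set, and metformin 1 lay below every control. The means were 5.36 ± 1.10 CPM in controls (SD, n = 5) and 16.9 ± 9.47 CPM with metformin (SD, n = 10), with a log2 fold change of 1.66 ± 0.48 (SE, adjusted p = 0.0330) and -0.25 ± 0.26 set-adjusted (adjusted p = 0.773). The call was lost without any 1 of controls 1 to 5.

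IFNAR1, the partner chain, had 16.2 ± 2.59 CPM in controls and 18.3 ± 3.98 CPM with metformin, a difference of 0.18 on the log2 scale (adjusted p = 0.446). In GRCg7b the genes IFNAR2, IL10RB, IFNAR1 and IFNGR2 follow each other on chromosome 1. IL10RB, the shared chain of the type III interferon and interleukin-10 receptors, was chosen after its values were seen and had -0.43 (adjusted p = 0.12), so of these neighbours IFNAR2 alone was called. IFNGR2, the signalling chain of the type II receptor, had 82.6 ± 27.5 and 99.2 ± 16.4 CPM, a difference of 0.26 on the log2 scale (adjusted p = 0.322). Its controls were uneven, with 121 and 102 CPM in controls 1 and 4 and 59.6 to 65.7 CPM in the other 3.

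IFNGR1, the ligand-binding chain of the type II receptor, parted the libraries 3 ways. Controls 1 to 5 had 4.43, 5.18, 5.46, 3.83 and 3.71 CPM, and metformin 1, 3 and 4 had 2.86, 2.25 and 2.54 CPM, below every control. Metformin 2 and 5 had 24.5 and 27.1 CPM, metformin 8 and 10 had 16.8 and 22.4 CPM, and metformin 6, 7 and 9 had 5.86, 6.11 and 6.99 CPM. In edgeR the log2 fold change of 1.38 ± 0.60 over all libraries did not pass (adjusted p = 0.102), nor did the set-adjusted -0.82 ± 0.40 (adjusted p = 0.454). The sign thus differed between the fits. Over all libraries DESeq2 called IFNGR1 higher, as did edgeR without metformin 3.

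Of the 6 transcription factors none passed over all libraries in edgeR. DESeq2 called IRF7 and IRF8 lower, as it did 1253 of all 14427 genes. In edgeR 3 of the 6 had an unadjusted p under 0.05, against 39.2% of all genes. STAT2, which carries the type I signal to the nucleus with IRF9, had 111, 94.3, 136, 109 and 115 CPM in controls 1 to 5. It had 166, 201 and 140 CPM in metformin 1, 3 and 4, which were above every control, then 23.1 and 23.1 CPM in metformin 2 and 5, and 63.1, 27.9, 20.1, 48.2 and 13.0 CPM in metformin 6 to 10. STAT2 was the 1 interferon gene of 35 in which metformin 1, 3 and 4 exceeded all controls, against 2.99% of all genes, and its log2 fold change was -0.64 ± 0.57 with every library (adjusted p = 0.409), against 0.58 ± 0.35 set-adjusted (adjusted p = 0.560). IRF9, its DNA-binding partner, was chosen after its values were seen and had 33.8 to 60.2 CPM in controls, 51.2 to 68.1 CPM in metformin 1, 3 and 4 and 14.1 to 36.1 CPM in the other sets. For IRF9 the controls overlapped both metformin ranges, which did not overlap each other.

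IRF7, the main IRF of type I interferon induction in chickens, had 49.1 to 89.9 CPM in controls and 50.8 to 82.5 CPM in metformin 1, 3 and 4. The low set had 12.6 to 13.2 CPM and the high set 12.1 to 31.4 CPM, so that the middle set did not overlap the others. Its log2 fold change was -1.13 ± 0.43 with every library (adjusted p = 0.0706), against -0.11 ± 0.26 set-adjusted (adjusted p = 0.928). IRF1, induced most by type II interferon, had -0.68 (adjusted p = 0.0626) and -0.20 set-adjusted. IRF8, a factor of macrophages and dendritic cells, had -0.59 (adjusted p = 0.0574) and -0.27 set-adjusted. IRF2, which competes with IRF1 for its sites in mammals, had 40.4 ± 8.65 CPM in controls and 45.3 ± 4.99 CPM with metformin. BATF3, a factor of cross-presenting dendritic cells in mammals, had 2.58 to 8.33 CPM in controls and 2.36 to 10.2 CPM with metformin, and its sign changed with the settings.

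**Figure D2:**
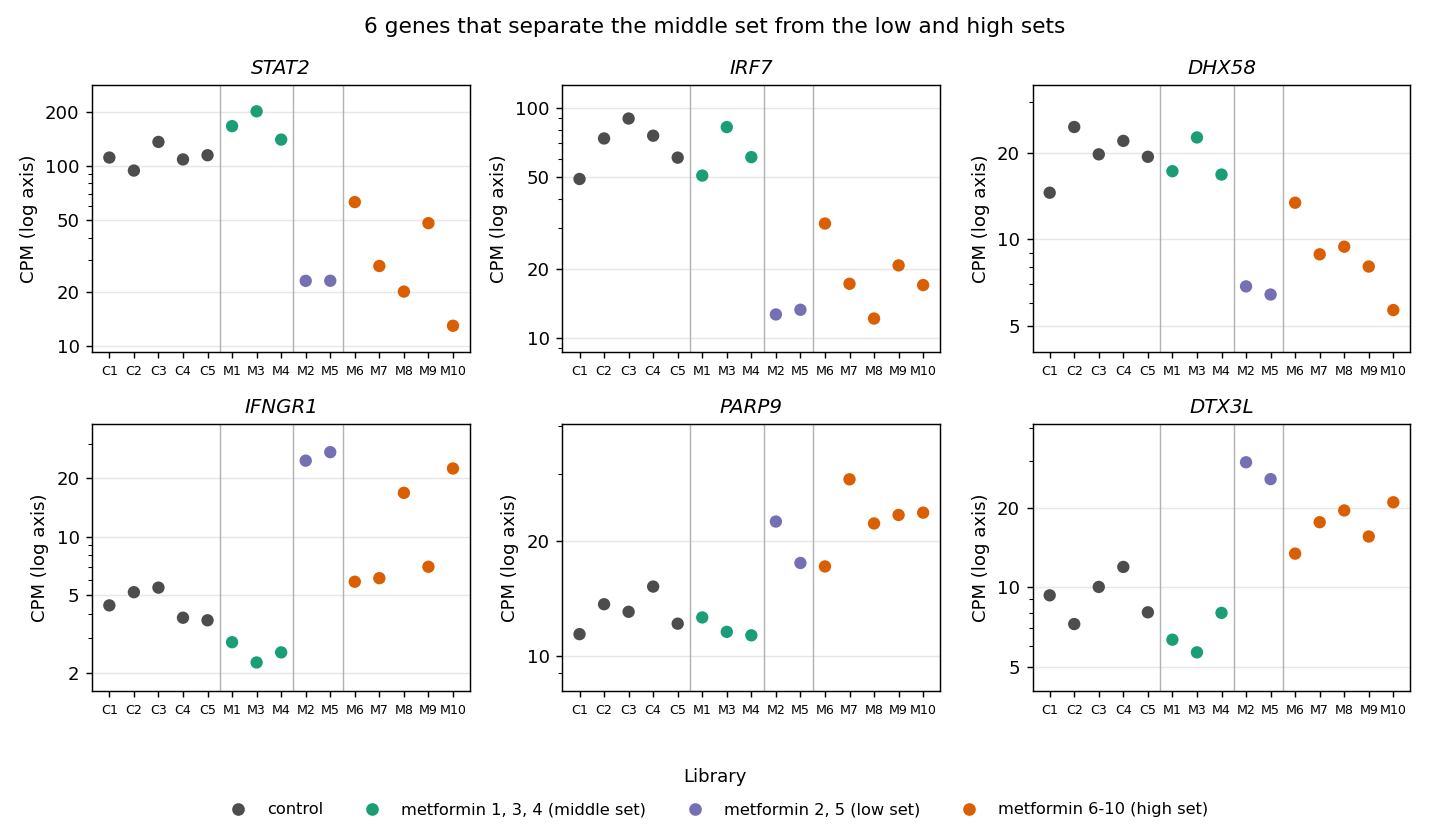
CPM per library (log axis) of STAT2, IRF7, DHX58, IFNGR1, PARP9 and DTX3L, 1 point per library, in controls (grey), metformin 1, 3 and 4 (green), metformin 2 and 5 (purple) and metformin 6 to 10 (orange). In STAT2, IRF7 and DHX58 the 7 libraries of the low and high sets lie below the 8 of the middle set, and in IFNGR1, PARP9 and DTX3L they lie above.

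Of 7 genes of RNA sensing and double-stranded RNA enzymes 2 rose and 0 fell, against 12.5% and 5.73% of all genes. IFIH1 had 7.38, 4.55, 5.73, 5.21 and 3.76 CPM in controls 1 to 5, 3.80, 5.05 and 5.16 CPM in metformin 1, 3 and 4, 18.2 and 18.4 CPM in metformin 2 and 5, and 9.64 to 16.0 CPM in metformin 6 to 10. The low and high sets lay above all others, and metformin 1, 3 and 4 lay within the range of the controls. Its log2 fold change was 1.12 ± 0.38 (adjusted p = 0.0488) and -0.19 ± 0.25 set-adjusted (adjusted p = 0.838). The call held in 3 of 15 fits with 1 library left out: those without metformin 1, 3 or 4. It was also lost with no filter on low counts. DHX58, or LGP2, a related helicase that regulates MDA5, ran the other way, with 14.5 to 24.6 CPM in controls, 16.8 to 22.6 CPM in metformin 1, 3 and 4, and 5.68 to 13.4 CPM in the other sets. The difference was -0.80 ± 0.30 on the log2 scale (adjusted p = 0.0691), and -0.09 set-adjusted.

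HELZ2, an interferon-induced helicase that acts as a transcriptional coactivator of PPAR factors in mammals, had the smallest p of the set in the fit over all libraries. Controls 1 to 5 had 3.03, 2.90, 7.48, 3.32 and 3.52 CPM and metformin 1, 3 and 4 had 6.4, 6.49 and 6.69 CPM. Metformin 2 and 5 had 40.0 and 41.1 CPM, and metformin 6 to 10 had 30.4, 28.5, 53.8, 41.8 and 51.0 CPM. Control 3 stood above metformin 1, 3 and 4, and these stood above the other 4 controls. The log2 fold change was 2.92 ± 0.58 (adjusted p = 0.0196) and 0.69 ± 0.29 set-adjusted (adjusted p = 0.376), and the latter was 1.03 without control 3. Over all libraries the call was lost without control 2, 4 or 5 and held without each of the other 12 libraries.

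The other sensors and enzymes did not pass over all libraries. TLR3, an endosomal receptor of double-stranded RNA, had 5.78 ± 0.85 CPM in controls and 7.97 ± 3.38 CPM with metformin, where metformin 2 was highest at 15.7 CPM. EIF2AK2, the kinase PKR that halts translation, had 13.6 ± 4.65 CPM in controls and 17.7 ± 4.39 CPM with metformin, which differed by 0.39 on the log2 scale (adjusted p = 0.222). ADAR, which edits double-stranded RNA, had 55 ± 4.37 CPM in controls and 45.2 ± 14.9 CPM with metformin, with 56.3 to 72.0 CPM in metformin 1, 3 and 4 and 29.3 to 44.1 CPM in the other sets. ZNFX1, an RNA helicase that senses viral RNA in mammals, had 36.8 and 28.9 CPM in controls 4 and 3 and 14.1 to 15.8 CPM in the other 3. The fits gave -0.57 (adjusted p = 0.108) and -0.74 set-adjusted, and -0.31 and -0.48 without control 4.

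**Figure D3:**
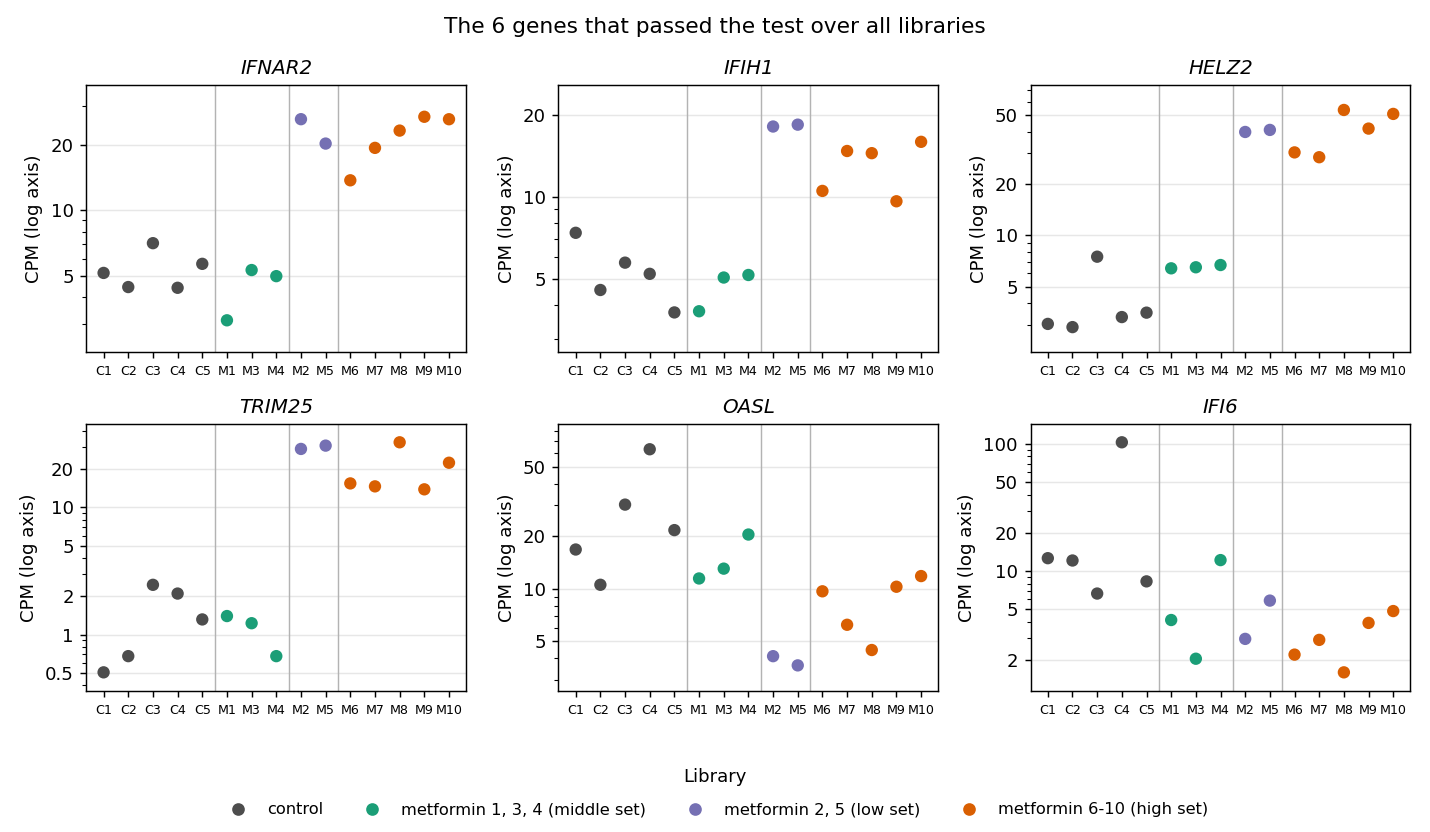
CPM per library (log axis) of the 6 interferon genes that passed the test over all libraries, 1 point per library, with the same colours for controls and metformin sets. IFNAR2, IFIH1, HELZ2 and TRIM25 are high in metformin 2, 5 and 6 to 10, OASL stands at 3.65 to 11.8 CPM there, overlapping control 2, and IFI6 has 1 control at 103 CPM among 4 at 6.67 to 12.7 CPM.

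Of the 8 antiviral effectors tested, 0 rose and 1 fell, against 12.5% and 5.73% of all genes. OASL, which makes 2'-5' oligoadenylate in chickens, had 16.8, 10.5, 30.3, 62.9 and 21.7 CPM in controls 1 to 5. It had 11.5, 13.0 and 20.4 CPM in metformin 1, 3 and 4, 4.12 and 3.65 CPM in metformin 2 and 5, and 9.68, 6.23, 4.47, 10.3 and 11.8 CPM in metformin 6 to 10. Control 4 was 2.07 times the next control, and 6 of 10 metformin libraries lay below every control. The log2 fold change was -1.58 ± 0.42 (adjusted p = 0.0285), and -1.06 without control 4 (adjusted p = 0.0967). Set-adjusted it was -0.92 ± 0.45 (adjusted p = 0.455), and -0.40 without control 4. The call was also lost without control 2, 3 or 5.

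IFITM3, a membrane protein that blocks virus entry, had 133, 125, 165, 427 and 116 CPM in controls 1 to 5 and 79.8, 76.1 and 199 CPM in metformin 1, 3 and 4. Control 4 was 2.59 times the next control, and metformin 4 was the highest of its 3. On the log2 scale metformin differed from control by -0.50 (adjusted p = 0.261) with all libraries and 0.02 without control 4. Set-adjusted it was -0.71, which became -0.19 without control 4 and -1.31 without metformin 4. IFITM3 and IFITM5 belong to a family of similar genes, and no source used here says how reads were shared between copies. IFITM5 had -0.73 (adjusted p = 0.0894), with 6.58 to 10.2 CPM in controls and 1.45 to 8.21 CPM with metformin.

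CMPK2, a mitochondrial nucleotide kinase, had 21.4 CPM in control 4 and 3.85 to 7.45 CPM in the other controls, against 2.54 to 15.9 CPM with metformin. The difference was 0.07 on the log2 scale (adjusted p = 0.903), and 0.69 without control 4. RSAD2, or viperin, the next gene to CMPK2 on chromosome 3 in GRCg7b, had 58 reads in all, at most 28 in a library, and 0 in 6 libraries. MX1, a dynamin-like GTPase that is a standard marker of the type I response, had 13 to 158 reads per library. It stood at 2.05 ± 0.75 CPM in controls, 2.03 ± 0.88 CPM with metformin and 1.10 ± 0.15 CPM in metformin 1, 3 and 4 (SD, n = 3), with log2 fold changes of -0.01 (adjusted p = 0.987) and, in the set-adjusted fit, -0.89 (adjusted p = 0.433). The sign over all libraries changed with the settings.

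IFIT5, the IFIT protein of chickens, had 8.47, 3.39, 12.1, 10.0 and 8.27 CPM in controls 1 to 5 and 3.53, 2.87 and 4.99 CPM in metformin 1, 3 and 4. Control 2 fell within the range of these 3 and the other 4 controls lay above it. Set-adjusted its log2 fold change was -1.14 ± 0.40 (adjusted p = 0.271, unadjusted p = 0.0111), and over all libraries it was -0.39 (adjusted p = 0.405). SAMD9L, which restricts viral translation in mammals, had 0.63 to 1.30 CPM in controls, 0.55 to 1.37 CPM in metformin 1, 3 and 4 and 0.74 to 5.68 CPM in the other sets (log2 fold change 1.15, adjusted p = 0.127). EPSTI1, an interferon-induced protein, had 4.07 ± 1.72 CPM in controls and 4.58 ± 1.16 CPM with metformin.

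IFI6 had a single control far above the others. Controls 1 to 5 had 12.7, 12.1, 6.67, 103 and 8.32 CPM, and metformin 1, 3 and 4 had 4.13, 2.05 and 12.2 CPM. Metformin 2 and 5 had 2.94 and 5.87 CPM, and metformin 6 to 10 had 2.21, 2.88, 1.60, 3.92 and 4.86 CPM. Control 4 was 8.16 times the next control. Metformin 4 was the only metformin library within the range of the controls, and the other 9 lay below all of them. The log2 fold change was -2.73 ± 0.60 (adjusted p = 0.0221), and -1.21 without control 4 (adjusted p = 0.0870). Set-adjusted it was -2.20 ± 0.85 (adjusted p = 0.318), -0.68 without control 4 and -3.21 without metformin 4. Without control 4 the controls had 9.95 ± 2.92 CPM (SD, n = 4). The call over all libraries was also lost without control 2 or 5. XAF1, an interferon-induced promoter of apoptosis, had 31 reads in all and at most 9 in a library.

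Of 7 tested genes for enzymes of ubiquitin, ISG15 and ADP-ribose and for IFI35, 1 rose and 0 fell over all libraries in edgeR. The shares of all genes were 12.5% and 5.73%. TRIM25, a ubiquitin ligase that activates RNA sensing in mammals, had 0.50, 0.68, 2.46, 2.10 and 1.32 CPM in controls 1 to 5 and 1.4, 1.23 and 0.68 CPM in metformin 1, 3 and 4. It had 28.8 and 30.6 CPM in metformin 2 and 5, and 15.4, 14.6, 32.5, 13.9 and 22.5 CPM in metformin 6 to 10. All 7 of these lay above every control, and metformin 1, 3 and 4 lay within the range of the controls. The log2 fold change was 3.51 ± 0.89 (adjusted p = 0.0276) and -0.39 ± 0.48 set-adjusted (adjusted p = 0.824), and the call was lost without any 1 of controls 1 to 5.

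USP18, the protease that removes ISG15 and dampens receptor signalling in mammals, had 2.06, 1.98, 3.22, 5.38 and 2.35 CPM in controls 1 to 5 and 1.13, 1.71 and 1.10 CPM in metformin 1, 3 and 4, all below every control. Set-adjusted its log2 fold change was -1.19 ± 0.46 (adjusted p = 0.318), and -0.88 without control 4. IFNGR1 and USP18 were the 2 of 35 genes in which metformin 1, 3 and 4 lay below all controls, against 3.56% of all genes. Over all libraries USP18 had -0.81 (adjusted p = 0.0961), and -0.49 without control 4.

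PARP14, DTX3L and PARP9 follow each other on chromosome 7 in GRCg7b, and DTX3L and PARP9 form a ubiquitin ligase complex in mammals. DTX3L had 7.26 to 11.9 CPM in controls, 5.67 to 8.00 CPM in metformin 1, 3 and 4 and 13.4 to 29.8 CPM in the other sets. PARP9 had 11.4 to 15.2, 11.3 to 12.6 and 17.1 to 29.1 CPM, so that both genes parted the same libraries. Their log2 fold changes in edgeR were 0.80 (adjusted p = 0.111) and 0.55 (adjusted p = 0.0919), and -0.48 and -0.15 set-adjusted. DESeq2 over all libraries called PARP9 higher. PARP14 had 32.3 to 62.2 CPM in the middle set and 36.6 to 63.8 CPM in the high set, which overlapped, and 66.0 to 76.9 CPM in the low set, above both. PARP12, which blocks translation of viral RNA, had 17.3 ± 2.46 and 20.9 ± 5.76 CPM, with metformin 3 lowest at 8.06 CPM. IFI35, a leucine zipper protein induced by type II interferon, had 133 CPM in control 4 and 91.6 to 102 CPM in the other controls. It differed by -0.51 on the log2 scale (adjusted p = 0.0829) and -0.10 set-adjusted.

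B2M, the light chain of class I antigen-presenting molecules, had 903, 733, 685, 1373 and 801 CPM in controls 1 to 5 and 539, 540 and 705 CPM in metformin 1, 3 and 4. The other metformin libraries had 592 to 810 CPM. Control 4 was 1.52 times the next control, and 5 of 10 metformin libraries lay below every control. The log2 fold change was -0.42 ± 0.19 (adjusted p = 0.109) and -0.60 ± 0.24 set-adjusted (adjusted p = 0.337), and -0.22 and -0.39 without control 4. CD274, the checkpoint ligand PD-L1, had 1.05 to 2.72 CPM in controls, 0 to 1.44 CPM in metformin 1, 3 and 4, and 2.39 to 5.13 CPM in the other sets. It differed by 0.67 on the log2 scale (adjusted p = 0.448) and -1.16 set-adjusted (adjusted p = 0.509). The latter was -1.95 without metformin 4 and -0.61 without metformin 3, the library with 0 reads.

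**Figure D4:**
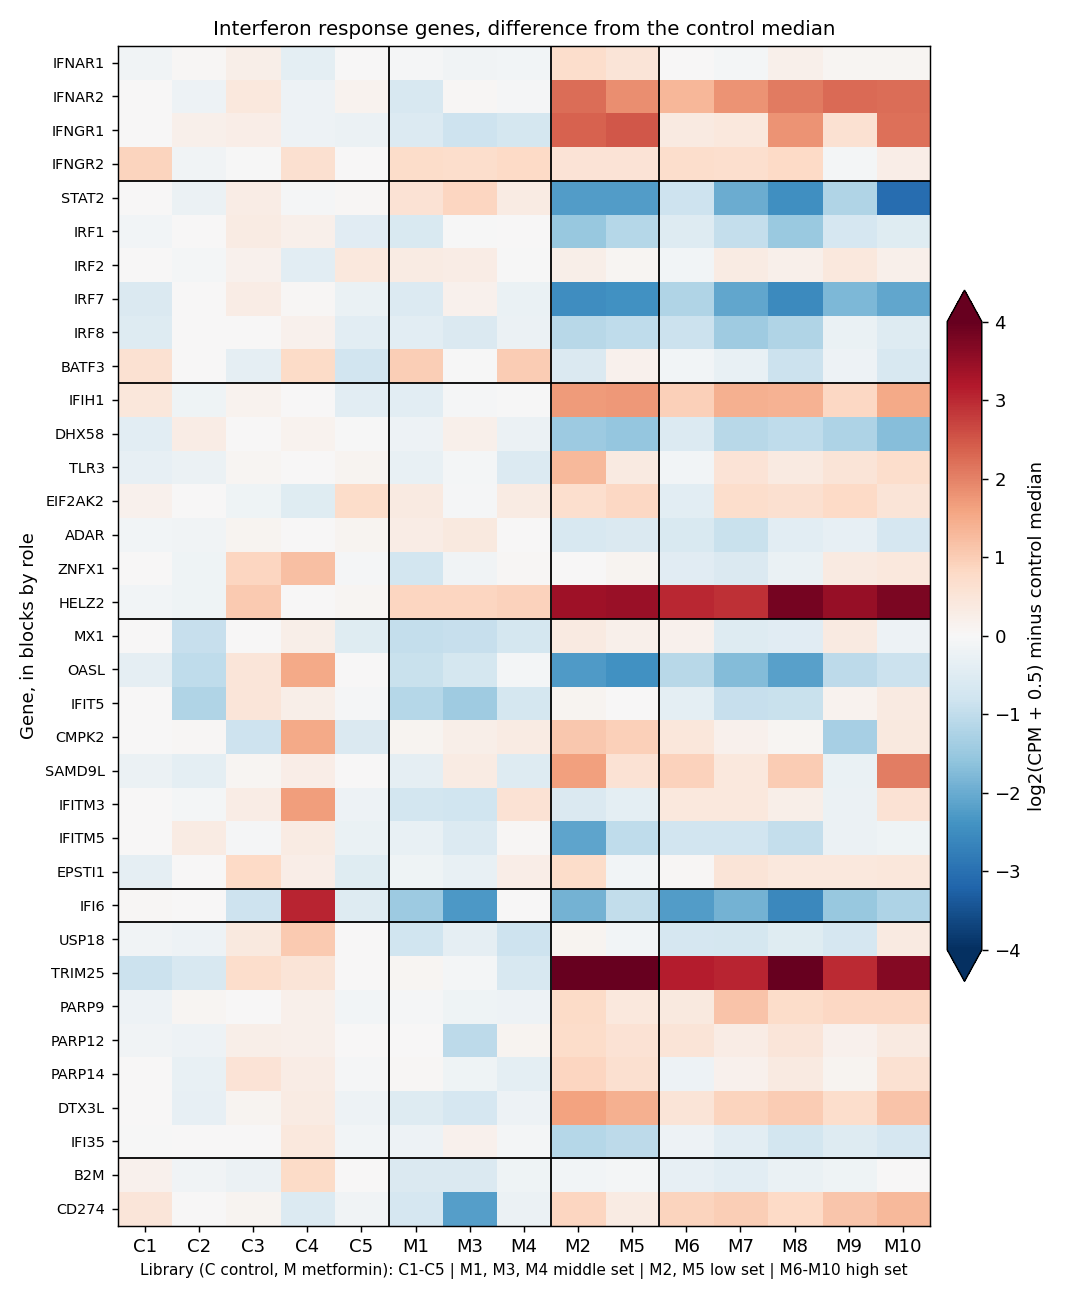
Difference of log2(CPM + 0.5) from the control median for the 35 tested interferon genes (rows, in blocks by role) in the 15 libraries (columns), red for higher and blue for lower. The columns of metformin 2, 5 and 6 to 10 share red cells in IFNAR2, IFIH1, HELZ2 and TRIM25 and blue cells in STAT2, IRF7, DHX58 and OASL, and control 4 has its reddest cell in IFI6.

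A single library, control 4, held the top control value of 15 of the 35 genes, where it held that of 23.5% of all genes tested. It exceeded the next control by more than 2-fold in 4 of 35 genes, IFI6, CMPK2, IFITM3 and OASL, against 1.25% of all genes. Control 3 was highest in 13 of 35 genes, among them STAT2, IRF1, IRF7 and IFIT5, and in 25.4% of all genes, with HELZ2 as its 1 gene over 2-fold, against 2.62% of all genes. Controls 1, 2 and 5 were highest in 3, 1 and 3 of 35 genes, against 18.4%, 14.9% and 16.8% of all genes. They exceeded the next control by over 2-fold in 0 genes each, against 1.72%, 0.825% and 1.05%. By role, control 4 was the highest control in 6 of 8 effectors, 4 of 7 genes of the ubiquitin and ADP-ribose group, 2 of 6 transcription factors, 1 of 7 sensors and 0 of 4 receptors.

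Among 34 other interferon-stimulated genes control 3 was the highest control in 18 and control 4 in 10, against 25.4% and 23.5% of all genes. Control 4 thus did not lead that list. LY6E and IFI27L2 had their highest control value in control 4. LY6E had 883 CPM in control 4 and 226 to 539 CPM in the other controls, and it fell with metformin (-1.22, adjusted p = 0.0240; -0.86 without control 4, adjusted p = 0.0719). IFI27L2, listed in RefSeq as ISG12-1, had 785 CPM in control 4 and 196 to 540 CPM in the others, and it fell too (-2.03, adjusted p = 0.0285; -1.83 without control 4, adjusted p = 0.0757). The class I heavy chains BF2 and BF1, chosen after their values were seen, had 537 and 714 CPM in control 4, against 176 to 206 and 448 to 490 CPM in the others. BF2 was higher still in metformin 6 and 8, at 584 and 618 CPM. They are near-identical genes whose reads may be shared. Control 4 was the highest control in 7 of 9 tested class I processing genes and in 1 of 14 class II and type II interferon target genes. It was so in 23.5% of all genes, and these lists were not tested against each other.

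Markers of blood and leukocytes were read beside this. The 8 erythrocyte and thrombocyte markers in the table summed to 1303 CPM in control 4 and 313 to 921 CPM in the other controls, with HBA1 and HBBA making up most of the sum and 3 further globin genes at or near 0. The 28 leukocyte and Kupffer markers summed to 839 CPM in control 4, against 627 to 1535 CPM in the other controls. Of these, control 3 alone was higher. CD163, CD28 and PAX5 were at or near 0 in control 4. Control 3 held the highest leukocyte sum and was the highest control in 20 of 27 tested leukocyte markers, against 25.4% of all genes. The part of these cells in the values of controls 3 and 4 was not tested. In the metformin libraries the leukocyte sums were 605 to 752 CPM in the middle set, 710 to 775 CPM in the low set and 490 to 859 CPM in the high set. Over all libraries 1 of 27 leukocyte markers rose and 5 fell, against 12.5% and 5.73% of all genes tested. LYZ (-1.52), C1QC (-1.28) and C1QA (-0.73) were among those that fell, and the 1 that rose was CD163, at 0 to 1.38 CPM. Called or not, 11 of the 27 had a log2 fold change above 0 and 16 below, with a median of -0.31. Of all genes 48.4% were below 0. The same background applies to the marker lists that follow. Of 11 endothelial markers 0 rose and 2 fell, TIE1 (-0.86) and EGFL7 (-1.06). Of 20 hepatocyte markers 3 fell, APOA4 (-1.97), APOC3 (-1.58) and AMBP (-0.71), and 1 rose, RBP4, at 0 to 1.70 CPM. As a list they did not lean: 10 were above 0 and 10 below, with a median of 0.04, against 0.03 over all genes. Of 5 erythrocyte and thrombocyte markers 0 were called by edgeR, with 4 at an unadjusted p under 0.05, against 39.2% of all genes. HBA1 had -1.11 (adjusted p = 0.0653).

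**Figure D5:**
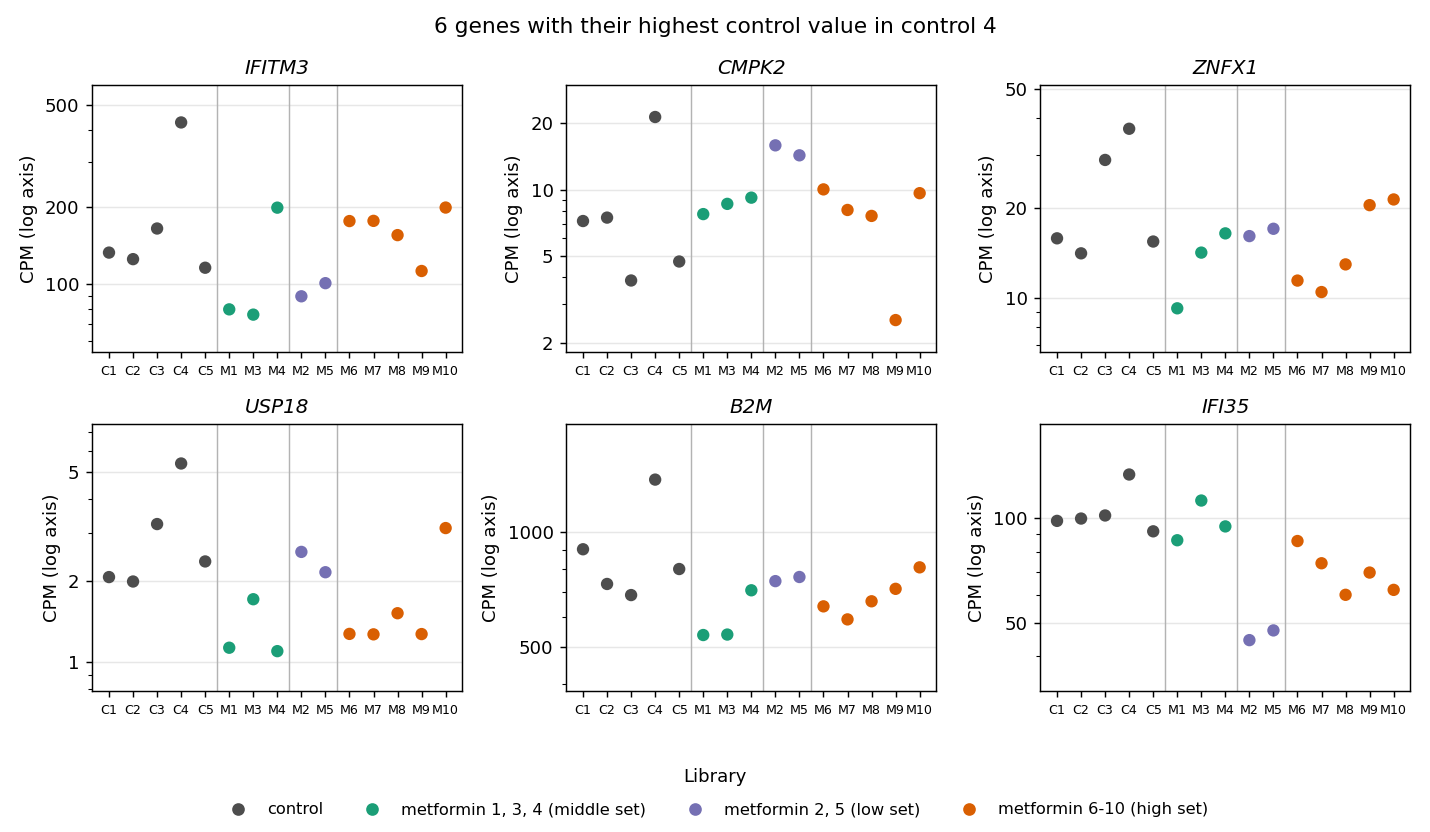
CPM per library (log axis) of IFITM3, CMPK2, ZNFX1, USP18, B2M and IFI35, 1 point per library, chosen because control 4 is their highest control, with controls in grey and the metformin sets in green, purple and orange. Control 4 exceeds all 14 other libraries in each of the 6 genes, at 427 CPM for IFITM3 and 1373 CPM for B2M.

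The low and high sets parted from the middle set without overlap in 12 of 35 interferon genes. They lay above it in 7, IFNAR2, IFNGR1, IFIH1, HELZ2, TRIM25, PARP9 and DTX3L, against 9.1% of all genes, and below it in 5, STAT2, IRF7, DHX58, ADAR and IFI35, against 13.3%. These sets were defined from the libraries' reads in no gene, so the difference was not tested. Each of the 2 directions held genes of more than 1 role: a receptor, a sensor and ubiquitin enzymes were among those above, and a STAT, an IRF and a helicase among those below.

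The rest of the pathway was read from further gene lists. Of 22 tested genes for receptor kinases, STAT factors and feedback, 3 rose and 1 fell, against 12.5% and 5.73% of all genes. Their median log2 fold change was -0.23, against 0.03 over all genes. JAK1, a kinase of both receptor types, had 4.37 to 13.3 CPM in controls, 7.31 to 12.7 CPM in metformin 1, 3 and 4 and 62.1 to 338 CPM in the other sets, and rose by 3.61 on the log2 scale (adjusted p = 0.0259), with 0.08 set-adjusted. The phosphatases PTPN11 and PTPN1 rose by 1.04 and 0.74 and had -0.12 and 0.09 set-adjusted. SOCS1, the feedback inhibitor of JAK kinases, had 24.0 ± 10.7 CPM in controls and 8.63 ± 3.93 CPM with metformin and fell (-1.48, adjusted p = 0.0225), with -1.19 set-adjusted (adjusted p = 0.224). Control 4 had the lowest SOCS1 of the controls, 12.7 CPM.

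Of 24 tested genes of nucleic acid sensing 8 rose and 1 fell. The background for this and the next lists is 12.5% of all genes called higher and 5.73% lower. The median of the sensing genes was 0.51 over all libraries and -0.05 set-adjusted. MB21D1, the DNA sensor cGAS, had 1.48 and 0.92 set-adjusted, the adaptor TANK 1.52 and 0.11, the class I regulator NLRC5 0.97 and 0.11, and the kinase TBK1 1.21 and -0.13. Of 34 other interferon-stimulated genes 2 rose and 3 fell, with a median of -0.23 and -0.17 set-adjusted. PARP11 rose by 1.61, and IFI30, a lysosomal reductase, fell by 1.23, with 0.48 and -0.38 set-adjusted. Of 9 class I processing genes TAPBP, or tapasin, fell (-0.82, adjusted p = 0.0347; -0.39 set-adjusted), and the median was -0.18. Of 14 class II and type II interferon target genes 0 rose and 2 fell, GCH1 (-1.0, and -1.05 set-adjusted) and NCF1 (-1.22, and -0.32 set-adjusted), with a median of -0.51. None of these lists had a call set-adjusted by edgeR. In the order given, 4 of 22, 0 of 24, 4 of 34, 1 of 9 and 2 of 14 genes had an unadjusted p under 0.05. Of all genes 11.6% had one. Without control 4, 14 of the 15 called genes named from these 5 lists missed the threshold (adjusted p = 0.0536 to 0.0914), and GCH1 kept its call (adjusted p = 0.0475). Calls over all genes dropped then from 1805 higher and 827 lower to 16 and 39. Without control 5 instead, 0 genes of the whole table were called in either direction, so GCH1 lost its call too.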

How the data were processed

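The authors deposited unnormalized counts of reads for each gene. The submitters' processing notes list HTSeq 0.12.3 and STAR 2.7.11b, besides Trim Galore 0.6.4 and FastQC 0.12.0, with GRCg6a and galGal6, names of a single chicken assembly. Per the labels' protocols, a stranded mRNA kit was used on 200 ng of RNA. No source used here gives the strand setting of the counting, so neighbouring or overlapping genes may share reads. Lines that name no gene entered neither library sizes nor tests. Reads outside genes were 14.6% to 55.1% of a library, reads with more than 1 place 2.29% to 12.0% and reads in more than 1 gene 0.411% to 0.870%. Every pair of libraries differed beyond sampling noise across the top 2000 genes (smallest chi-square per degree of freedom 90.6). RefSeq's GRCg7b table matched 35 of 37 symbols and served for names and neighbours. Promoter and protein sequences were not used here.

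Groups were compared over the whole table with edgeR 4.0.16 in R 4.3.3 (quasi-likelihood test, TMM factors, default expression filter, Benjamini-Hochberg adjustment, two-sided), and adjusted p-values under 0.05 were called. The SE is the log2 fold change divided by the root of the F statistic. Library sets were separated wherever sorted neighbours differed by over 5 percentage points in reads in no gene. Alternatives were DESeq2 1.42.0, RLE factors, no filter, a filter at 1 CPM in 5 libraries, a block for replicate numbers, the middle set alone, and each library left out. The calculation was also run on simulated counts with the same dispersion for every gene and no outlying library. Such counts cannot show how calls behave where a single library drives the values. The genes of the set, the other lists and the library sets were chosen with earlier results of these data known. From each other list, up to 4 called genes with the smallest p are named, or 1 where none was called.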

Additional observations from a re-analysis of the deposited data

Results flagged for a closer look

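Each of the 35 tested interferon genes was screened for a library far from the others of its group, in the 5 controls and the 10 metformin libraries. The cut-off is set to flag about 1 in 20 groups of independent, normally distributed values. That rate need not hold here, since CPM were not transformed, the genes share libraries and the metformin libraries span 3 sets. Of 70 groups 7 held such a library, 5 of them in controls. In 4 genes the library was control 4, which stood apart as the highest control: IFI6 had 103.36 CPM there with the next control at 12.7 CPM, IFITM3 426.76 CPM with the next at 165 CPM, CMPK2 21.403 CPM with the next at 7.45 CPM, and IFI35 133.46 CPM with the next at 102 CPM. HELZ2 had 7.4784 CPM in control 3 with the next control at 3.52 CPM. TLR3 had 15.714 CPM in metformin 2 with the next metformin library at 10.1 CPM, and IFI6 had 12.231 CPM in metformin 4 with the next at 5.87 CPM.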

How the results depend on the processing

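Over all libraries the counts of interferon genes called were 4 higher and 2 lower. They were 6 higher with DESeq2, which also gave 3 lower and no p-value for IFI6, where all genes gave 3034 and 1253 of 14427. With the replicate block the counts were 0 higher and 0 lower. Numbers 6 to 10 hold no control, so the contrast of that fit comes from controls 1 to 5 and metformin 1 to 5. With 1 library left out they ran from 0 to 7 higher and from 0 to 7 lower. They were 0 and 0 without control 2, 4 or 5, 1 and 2 without control 1 and 1 and 1 without control 3. Calls over all genes dropped too, from 1805 higher and 827 lower to 540 and 336 (control 1 left out), 2 and 4 (control 2), 233 and 182 (control 3), 16 and 39 (control 4) and 0 and 0 (control 5). The interferon genes numbered 7 and 7 without metformin 3, where all genes gave 3011 and 2293 of 14405, and 5 and 7 without metformin 4, where they gave 2570 and 1556 of 14274. With the block all genes gave 0 and 0. Without metformin 1 the interferon genes numbered 4 and 4, where all genes gave 2337 and 1266 of 14405. Set-adjusted, 0 interferon genes were called under RLE factors, DESeq2, the middle set alone and each left-out library. The labels state no pairing by replicate number. Same-numbered deviations from the group means correlated at -0.08 to 0.06. This cannot settle whether samples were paired, since the metformin deviations also carry the library sets. Signs over all libraries reversed for MX1 with RLE factors (0.0424) and DESeq2 (0.0456). With the replicate block, whose contrast leaves out metformin 6 to 10, they reversed for BATF3 (0.29) and CD274 (-0.50). With 1 library left out, values over all libraries ran from -0.18 to 0.14 for MX1, -0.26 to 0.13 for BATF3, -0.12 to 0.69 for CMPK2 and -0.642 to 0.0152 for IFITM3. Set-adjusted they ran from -0.151 to 0.0037 for IFNAR1, -0.392 to 0.0877 for EPSTI1, -0.00194 to 0.334 for EIF2AK2, -0.26 to 0.55 for CMPK2, -0.32 to 0.0401 for IRF7, -0.463 to 0.0297 for PARP12 and -0.654 to 0.089 for SAMD9L. Leaving out control 4 gave the upper end for CMPK2 in both fits, and for MX1, BATF3 and IFITM3 over all libraries. It gave the lower end for IFNAR1 and EIF2AK2 set-adjusted. The causes were not tested. RSAD2 and XAF1, with at most 28 and 9 reads in a library, were too shallow to test.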
